A study of Drosophila melanogaster with 16 samples.

Results

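The comparison described here set 4 single *Drosophila* flies with a knockdown of dystrophin that had lived through chronic hypoxia on a mountain (CH-*dmDys*) against 4 flies of the same genotype kept in normal air (normoxic *dmDys*). These 8 flies were chosen by the titles of their samples, out of 16 flies in the series. The *dmDys* flies carried UASdmDysC-term, an RNA interference construct against the C-terminal part of dystrophin, under P-tub-Gal4, a driver active in all tissues. The labels give each fly an age of 3 to 5 days, and do not say whether this was counted before or after the exposure. The CH-*dmDys* flies spent the 16 days of a climb in vials, at altitudes up to 6194 m and at oxygen pressures equal to 16.3% down to 9.9% oxygen, while the normoxic *dmDys* flies stayed in room air. The other 8 flies carried the driver alone and were 4 CH-WT flies, kept in a chamber at normal pressure in which oxygen followed the same steps, and 4 normoxic WT flies. RNA of each whole fly was amplified and hybridized to 1 Affymetrix Drosophila Genome 2.0 array. A whole fly mixes all its tissues, so that fewer cells of a type and less RNA per cell cannot be told apart in any value given here.

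Dystrophin links the actin skeleton of a muscle fibre to the extracellular matrix through a complex of membrane proteins that includes dystroglycan. When oxygen falls, insects open their tracheal air tubes, stabilise the transcription factor Sima, the counterpart of mammalian HIF, save ATP and shift their fuel use. A fly on a mountain also meets low air pressure, transport and handling, and the study names temperature and humidity as further possible influences. The samples do not separate these from low oxygen. The study also measured some genes by qPCR in *dmDys* flies under hypoxia at normal pressure, which are not among these samples. For these genes it reports the same direction as on the mountain, among them Hex-C, Galk and Obp99b, which are described below. It also reports qPCR of some of its most changed genes in independent samples, in the direction of the arrays. Levels are given as log2 of the GCRMA intensity of a probe set, the group of probes that reads 1 transcript. The lowest level on the *dmDys* arrays was 2.06, and a difference measured against a level close to it has no scale below that floor. Values of single flies are listed for CH-*dmDys* replicates 5, 6, 7 and 8, in that order, and for normoxic *dmDys* replicates 6, 7, 8 and 10, in that order. A probe set was called where limma's adjusted p over 18907 probe sets was under 0.05 and the log2 difference was at least 1 in size, which is a change of 2-fold or more. Every fit was repeated 8 times with 1 fly left out each time, and these repeats are called omissions below.

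The target of the knockdown was read by 5 probe sets, and the brightest of them was not called. This probe set of Dys, the dystrophin gene, had log2 levels of 9.13, 8.21, 8.54 and 8.57 in CH-*dmDys* flies, against 9.62, 7.41, 5.89 and 7.09 in normoxic *dmDys* flies (log2 difference 1.11, standard error 0.78, adjusted p = 0.447 from limma). The same probe set had 8.47, 7.97, 8.39 and 9.27 in CH-WT flies and 8.12, 7.96, 9.82 and 7.67 in normoxic WT flies. Normoxic *dmDys* replicates 7, 8 and 10 were below every normoxic WT fly and replicate 6 was not, and all 4 CH-*dmDys* flies were within the range of the CH-WT flies. A second, dim probe set of Dys was called higher, with 3.35, 4.17, 3.6 and 4.23 in CH-*dmDys* flies, against 3.04, 2.27, 2.31 and 2.69 in normoxic *dmDys* flies (log2 difference 1.26, standard error 0.27, adjusted p = 0.024), and the other 3 were at the floor in all 8 flies. The floor of these 3 probe sets was at 2.08 in *dmDys* flies and at 2.15 to 2.17 in WT flies, whether the arrays of the 2 genotypes were normalized together is not given in the sources used here, and where these probe sets lie relative to the RNA interference construct was not analysed here. The size of the knockdown is therefore not measured, and the genotype is taken from the labels.

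The arrays carry probe sets for the 3' end, the middle and the 5' end of 3 control transcripts, Act5C, Gapdh and eIF-4a. Amplification starts at the 3' end, so a larger 3' minus 5' difference means that less of the 5' part of these transcripts was read. Averaged over the 3 transcripts, this log2 difference was 4.09, 2.95, 3.08 and 3.05 in CH-*dmDys* flies, against 9.55, 10.34, 5.76 and 8.18 in normoxic *dmDys* flies. The groups did not overlap, and the difference of -5.16 had p = 0.029 in a two-sided exact permutation test, the smallest that 4 flies against 4 allow, and 0.029 after adjustment over 4 such tests. Normoxic *dmDys* replicate 8 lay closest to the CH-*dmDys* flies, and CH-*dmDys* replicate 5 lay closest to the normoxic ones.

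**Figure D1:**
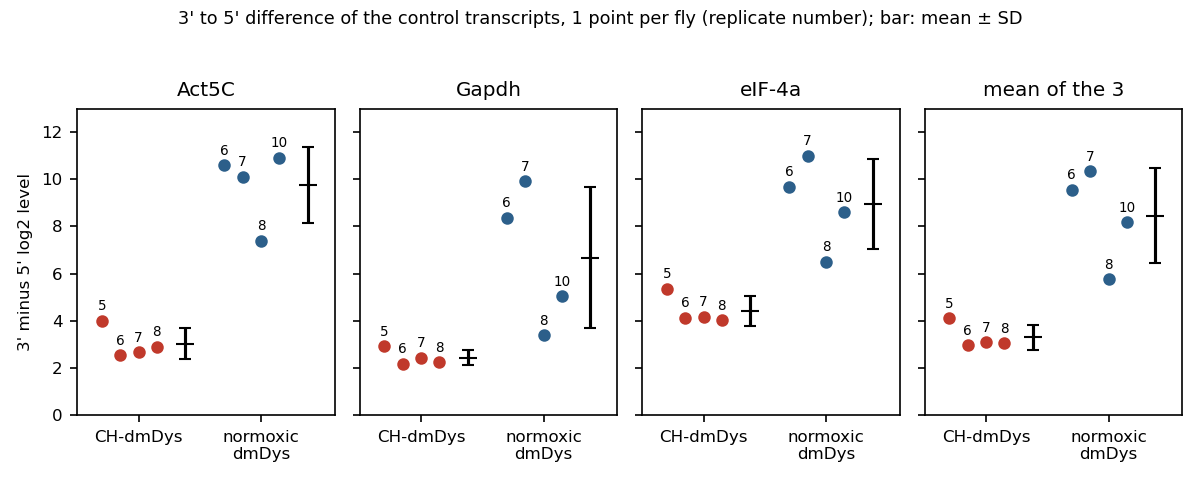
The 3' minus 5' log2 difference (vertical axis) of 3 control transcripts and of their mean, with 1 point per fly, its replicate number, and the mean ± SD of each group of 4. All CH-*dmDys* points lie below all normoxic *dmDys* points, and normoxic replicate 8 is the lowest of its group in each panel.

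The 5' ends carried most of this. The 5' probe set of Act5C had levels of 10.01, 11.61, 11.52 and 11.22 in CH-*dmDys* flies, against 2.10, 2.11, 5.97 and 2.24 in normoxic *dmDys* flies, 3 of which were at the floor. The 3' probe set of eIF-4a differed by only 0.08 (standard error 0.05, adjusted p = 0.398 from limma), while its middle probe set differed by 1.05 and its 5' probe set by 4.61. The 3' probe set of Act5C was itself higher in CH-*dmDys* flies by 1.26 (standard error 0.25, adjusted p = 0.0175). In WT flies the mean 3' minus 5' difference ranged from 4.51 to 6.78 in CH-WT and from 6.97 to 7.34 in normoxic WT flies. Since the groups did not overlap in this measure, the state of the RNA and CH cannot be told apart in any comparison of the *dmDys* flies that follows.

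Between CH-*dmDys* and normoxic *dmDys* flies 1032 probe sets were called higher (5.46% of those tested) and 769 lower (4.07%), together 9.53%. Taking each of 11982 genes with 1 symbol by its brightest probe set, 821 genes were higher (6.85%) and 635 lower (5.3%). These 2 gene shares are the background for every list below, and the median log2 difference over all genes was 0. The median size of the log2 differences called was 1.74 among the higher and 1.5 among the lower probe sets, and 41 of the higher and 22 of the lower ones were at least 5. Of those called higher, 217 had a normoxic mean under a log2 level of 4, and of those called lower, 181 had a CH-*dmDys* mean under 4. All CH-*dmDys* flies lay apart from all normoxic *dmDys* flies in 29.1% of all probe sets, called or not (13.9% above and 15.2% below), and in 37.4% of all genes (17.2% above and 20.3% below).

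**Figure D2:**
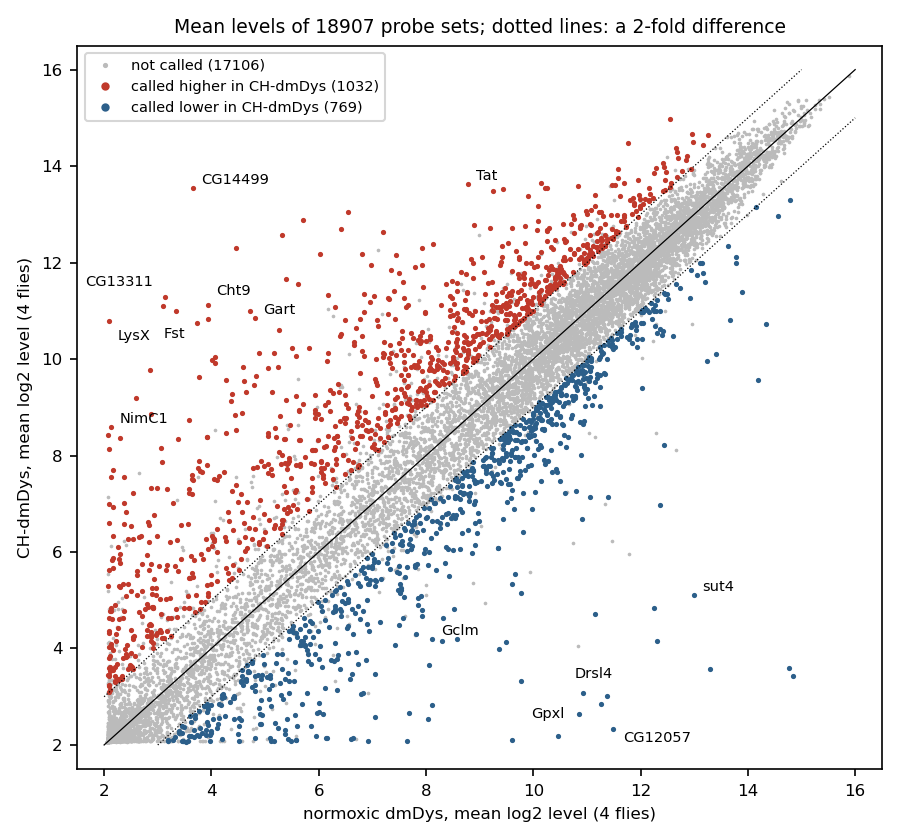
Mean log2 level of each probe set over the 4 CH-*dmDys* flies (vertical axis) against its mean over the 4 normoxic *dmDys* flies (horizontal axis), with the 1032 called higher, the 769 called lower and some genes of the text marked. Calls occur at all levels between the floor and about 14, and many of the largest differences have 1 group close to the floor.

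The calls were densest at middle levels. Between log2 levels of 4 and 6, 13.9% of probe sets were called higher and 12.7% lower, and above 12 these shares were 3.41% and 0.851%. Under a level of 4, where 9567 probe sets lay, they were 1.09% and 0.972%. The background shares cover all levels and were not matched to the levels of a list. A list of mostly expressed genes can lie above them for that reason. No chromosome arm stood far from the background, with 7.21% higher and 6.35% lower on the X as the largest of the major arms. The share called higher was 5.58%, 8.81%, 7.20% and 5.96% of genes in 4 classes from the shortest to the longest gene, introns included, so that it did not run in 1 direction with length. Of 1094 genes with 2 or more probe sets 219 had a call, and in 196 of them other probe sets of the gene were not called. In 16 all probe sets were called the same way, and in 7 there were calls in both directions.

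In each group, the fly that most often lay nearest to the other group was also the one nearest to it in the control transcripts. Among the normoxic *dmDys* flies, replicate 8 was the one nearest to the CH-*dmDys* mean in 63.1% of the probe sets called higher and in 65.1% of those called lower, and also in 46% of those not called with a level above 6. Among the CH-*dmDys* flies, replicate 5 was nearest to the normoxic mean in 43%, 42.3% and 32.9% of these sets. The Pearson correlation of log2 levels above 6 was 0.895 to 0.902 between normoxic replicate 8 and the CH-*dmDys* flies, and 0.819 to 0.855 for the other 3 normoxic flies, against 0.949 to 0.976 within the normoxic group. When normoxic replicates 6 and 7, which had the largest 3' to 5' differences, were left out, 403 probe sets were called higher and 320 lower. Of these, 375 and 289 were among the original calls. This setting has fewer flies, so a call lost in it does not show that the difference became smaller.

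The breakdown of phenylalanine and tyrosine to fumarate and acetoacetate had the highest share of genes called higher of all lists described. Of 6 measured enzymes 5 were higher and 0 lower in CH-*dmDys* flies, and their median log2 difference was 3.28. Tat, tyrosine aminotransferase, which takes the first step from tyrosine, had levels of 13.56, 13.67, 13.33 and 13.96 in CH-*dmDys* flies, against 8.61, 8.47, 9.86 and 8.19 in normoxic *dmDys* flies. Tat rose in CH-*dmDys* flies (log2 difference 4.85, 28.8-fold, standard error 0.38, adjusted p = 0.00128), and the groups lay more than 3 units apart. Hpd, the dioxygenase that makes homogentisate, had 13.66, 12.85, 13.58 and 13.86 in CH-*dmDys* flies, against 9.35, 9.15, 8.94 and 9.59 in normoxic *dmDys* flies (log2 difference 4.23, standard error 0.25, adjusted p = 0.000471). Replicate 8 was here the lowest normoxic fly and not the one closest to CH-*dmDys*. The next enzyme, homogentisate dioxygenase (hgo), had 10.95, 10.61, 10.83 and 11.93, against 5.67, 6.22, 7.64 and 5.65 (log2 difference 4.79, standard error 0.54, adjusted p = 0.00336).

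The last steps of this route rose less. GstZ2, of the family that isomerises maleylacetoacetate, was higher by 2.32 and Faa, which splits fumarylacetoacetate, by 1.02. Both calls were lost when CH-*dmDys* replicate 5 or 7 or normoxic replicate 6, 7 or 10 was left out, and that of Faa also without CH-*dmDys* replicate 8 (highest adjusted p for GstZ2 0.0681). Leaving out normoxic replicates 6 and 7 together left 3 of the 6 enzymes called, Tat, Hpd and hgo. The Hn gene for the hydroxylase that makes tyrosine from phenylalanine is not named in the array annotation used here.

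Enzymes that pass methyl and one-carbon units formed the next list by share among those of 5 or more genes, with 7 of 16 higher and 0 lower and a median log2 difference of 1.58. Gnmt, glycine N-methyltransferase, uses up S-adenosylmethionine and makes sarcosine. It had levels of 13.61, 13.57, 13.46 and 13.98 in CH-*dmDys* flies, against 10.11, 10.40, 10.97 and 9.09 in normoxic *dmDys* flies (log2 difference 3.51, standard error 0.40, adjusted p = 0.00351). Sardh, which oxidises sarcosine in mitochondria, had 7.43, 5.89, 8.71 and 7.3, against 2.08, 2.14, 5.16 and 2.11. Its log2 difference of 4.46 (adjusted p = 0.0209) was no longer called in 6 of the 8 omissions (adjusted p up to 0.0605), those of CH-*dmDys* replicate 6 and normoxic replicate 8 being the others, and normoxic replicate 8 was again the fly closest to CH-*dmDys*.

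CG10621, annotated as a homocysteine S-methyltransferase, had 8.73, 10.64, 9.82 and 11.31 in CH-*dmDys* flies, against 5.30, 5.40, 5.66 and 4.29 in normoxic *dmDys* flies (log2 difference 4.96, standard error 0.61, adjusted p = 0.00437). In folate metabolism Nmdmc, a mitochondrial methylenetetrahydrofolate dehydrogenase, had 10.36, 11.19, 11.35 and 10.97, against 6.61, 5.80, 8.59 and 6.40 (log2 difference 4.12, standard error 0.63, adjusted p = 0.00809). The trifunctional folate enzyme pug was higher by 2.23, and AhcyL2 and AhcyL1, relatives of the enzyme that cleaves S-adenosylhomocysteine, by 2.25 and 1.34. All of these kept their calls when any 1 fly was left out, and the list had between 6 and 10 higher genes over these omissions. Without normoxic replicates 6 and 7 it had 2.

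Purine synthesis draws on the same one-carbon units. Of 27 genes of purine and pyrimidine metabolism 6 were higher and 0 lower, with a median of 0.06. Gart, a trifunctional enzyme of the purine route, had 9.78, 11.01, 11.49 and 11.12 in CH-*dmDys* flies, against 4.42, 4.81, 5.44 and 4.56 in normoxic *dmDys* flies (log2 difference 6.04, 65.8-fold, standard error 0.42, adjusted p = 0.000846). Paics, which acts later in the same route, had 11.38, 11.08, 11.51 and 12.00, against 6.69, 7.38, 9.49 and 8.21 (log2 difference 3.55, standard error 0.61, adjusted p = 0.0116). Both of the following genes of breakdown were higher as well, ry, the xanthine dehydrogenase that makes urate, by 1.89 (adjusted p = 0.00177), and su(r), a pyrimidine-degrading dehydrogenase, by 1.72 (adjusted p = 0.00825). RnrL, the large subunit of ribonucleotide reductase, rose by 1.44 at a low level, and Adgf-D, an adenosine deaminase-related factor, was higher by 1.51 with a call that 6 of the 8 omissions removed.

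**Figure D3:**
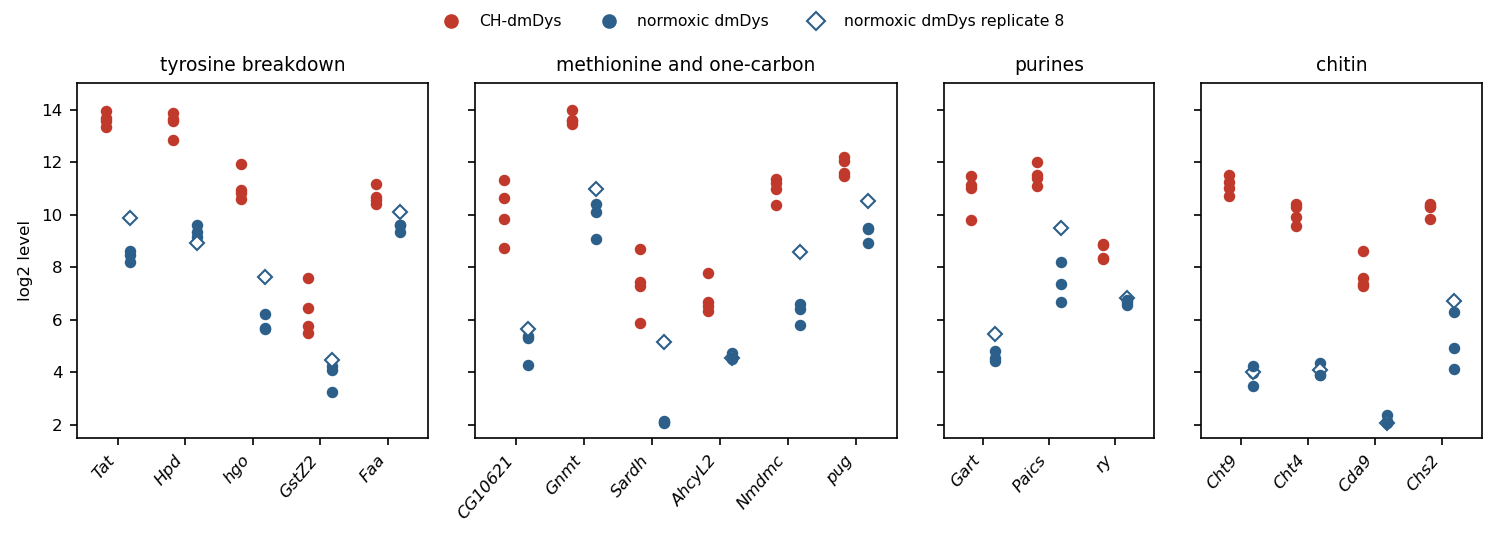
Log2 level (vertical axis) of genes of tyrosine breakdown, one-carbon metabolism, purine metabolism and chitin, with 1 point per fly for 4 CH-*dmDys* flies (left of each gene) and 4 normoxic *dmDys* flies (right), and normoxic replicate 8 as an open diamond. The groups lie apart in each of these genes, and the diamond is the normoxic point nearest to CH-*dmDys* in Tat, hgo, Nmdmc, pug, Gart and Paics, among others.

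Not all amino acid genes went this way. Of 18 genes that make amino acids and transfer nitrogen, 1 was higher and 1 lower. AsnS, asparagine synthetase, had 3.08, 4.76, 3.95 and 4.71 in CH-*dmDys* flies, against 8.24, 8.90, 11.32 and 9.54 in normoxic *dmDys* flies, and thus fell (log2 difference -5.37, standard error 0.75, adjusted p = 0.00627). Here normoxic replicate 8 was the fly farthest from CH-*dmDys*. Agxt, alanine-glyoxylate aminotransferase, was higher by 1.39, and lost its call without CH-*dmDys* replicate 7 or 8 or normoxic replicate 10.

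Genes that make, cut or bind chitin, the polymer of the cuticle and of the peritrophic matrix that lines the gut, were called higher in 11 of 41 and lower in 2 of 41, with a median of 0. Cht9, a chitinase, had 10.70, 11.51, 11.02 and 11.26 in CH-*dmDys* flies, against 3.48, 3.96, 4.02 and 4.26 in normoxic *dmDys* flies (log2 difference 7.19, 146-fold, standard error 0.23, adjusted p = 7.64e-05). A second chitinase, Cht4, had 9.57, 10.29, 9.93 and 10.41, against 3.89, 4.37, 4.07 and 3.89 (log2 difference 5.99, standard error 0.21, adjusted p = 0.000115). The flies of each group lay within 1 unit of each other in both genes. Cda9, a chitin deacetylase, had 7.27, 7.35, 8.63 and 7.58, against 2.39, 2.15, 2.08 and 2.08, so that all normoxic flies were close to the floor (log2 difference 5.54, standard error 0.32, adjusted p = 0.000401).

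Both chitin synthases of the fly were called, in opposite directions. Chs2, the synthase of the gut, had 9.83, 10.31, 10.42 and 10.34 in CH-*dmDys* flies, against 6.28, 4.14, 6.70 and 4.91 in normoxic *dmDys* flies (log2 difference 4.72, standard error 0.59, adjusted p = 0.0046). The synthase of cuticle and trachea, kkv, was lower by 1.70 at a low level, with a call that 6 of the 8 omissions removed. Idgf1, Idgf2, Idgf5 and Idgf6, secreted chitinase relatives that lack the activity, were higher by 2.00, 1.18, 2.39 and 1.10, of which the call of Idgf5 alone survived each omission. Obst-J, a chitin-binding protein, rose by 3.02 (adjusted p = 0.00437), and among the mucin-related genes Mur29B and Mur18B were higher by 3.30 and 1.71, calls that 2 and 3 of the 8 omissions removed, and Mur82C was lower by 1.68.

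Of 105 structural proteins of the cuticle 4 were higher and 3 lower, and 90 had a mean level under 4. Cpr67Fb, a cuticle protein with a chitin-binding domain, had 13.40, 11.81, 13.39 and 13.57 in CH-*dmDys* flies, against 6.98, 7.62, 4.69 and 6.91 in normoxic *dmDys* flies (log2 difference 6.49, 90.0-fold, standard error 0.74, adjusted p = 0.00351). Cpr73D went the other way, with 5.67, 5.70, 5.75 and 5.95, against 7.98, 8.81, 8.34 and 8.29 (log2 difference -2.59, standard error 0.18, adjusted p = 0.000799). TwdlG, of the Tweedle family of cuticle proteins, was lower by 3.14 on the log2 scale (adjusted p = 0.00606), and Cpr72Ec was higher by 2.70, a call that 5 of the 8 omissions removed.

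The secreted proteases of the gut were lower where they were called. Of 27 Jonah and trypsin genes 0 were higher and 5 lower, and the same count of 5 was found in every omission of 1 fly and without normoxic replicates 6 and 7. Jon44E, a chymotrypsin-like protease, was at 2.18 in all CH-*dmDys* flies, against 11.29, 10.06, 10.61 and 9.91 in normoxic *dmDys* flies (log2 difference -8.29, standard error 0.30, adjusted p = 0.000115). The levels of Jon65Ai, Jon65Aii and Ser8 in CH-*dmDys* flies were also at the floor, at 2.07 to 2.24, and they fell by 4.49, 3.48 and 3.76 on the log2 scale. The trypsin iotaTry fell by 1.89. The list's median was -0.06, so most members did not share these falls.

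**Figure D4:**
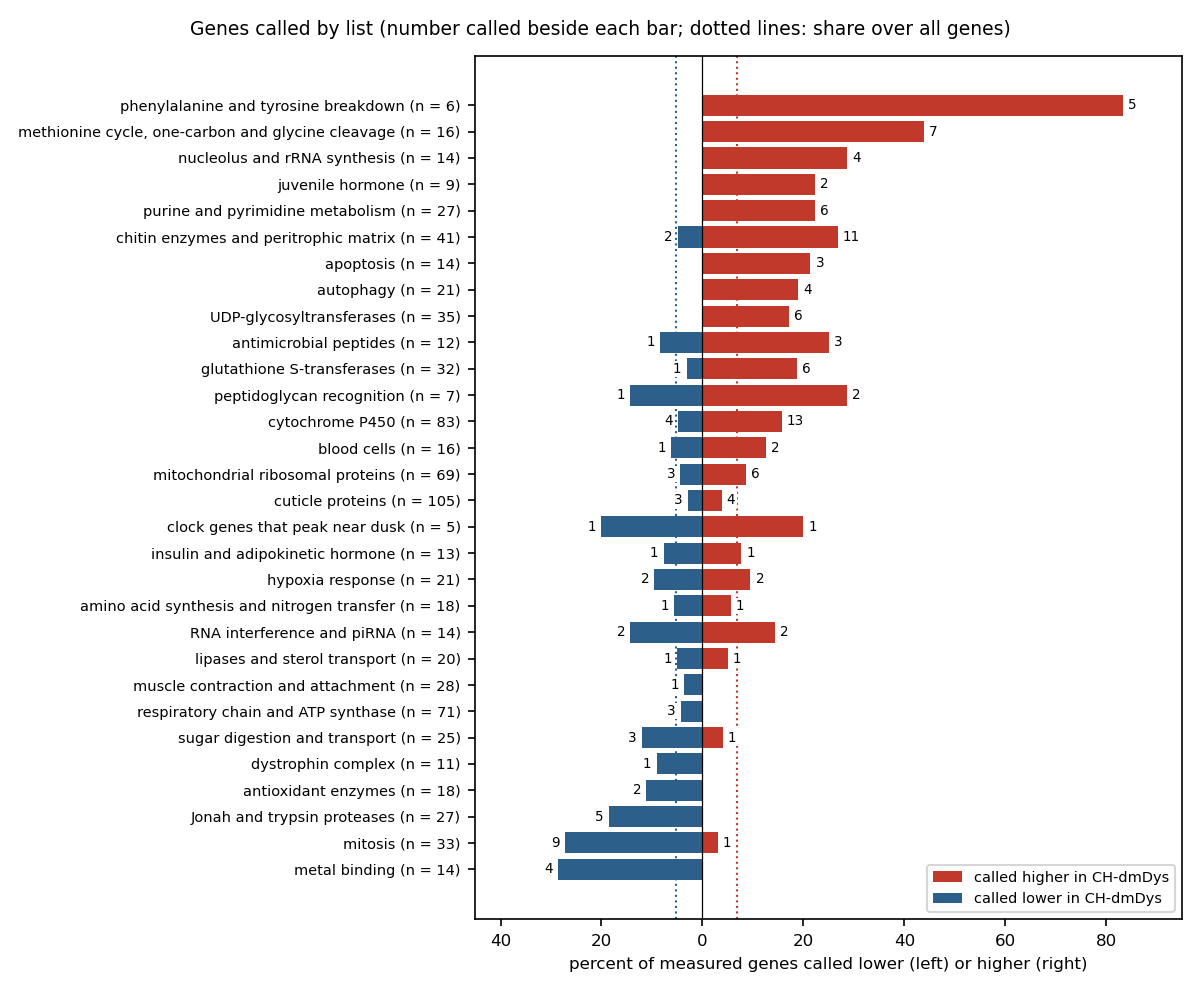
Percent of the measured genes of each list called lower (bars to the left) or higher (bars to the right) in CH-*dmDys* flies, with the number of genes beside each bar, for the described lists of 5 or more genes. The dotted lines mark the shares over all genes, 5.3% lower and 6.85% higher, and tyrosine breakdown and metal binding are at the ends.

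Lysozymes, which cut bacterial cell walls and in flies are made mainly in the gut, split. LysX had 10.78, 10.44, 12.10 and 9.83 in CH-*dmDys* flies, against 2.13, 2.08, 2.08 and 2.08 in normoxic *dmDys* flies, whose levels were all at the floor (log2 difference 8.69, standard error 0.47, adjusted p = 0.000318). LysP had 5.88, 5.13, 5.27 and 5.05, against 11.64, 8.94, 7.53 and 10.32 (log2 difference -4.28, adjusted p = 0.0201), a call lost without CH-*dmDys* replicate 6, 7 or 8 or normoxic replicate 10. The third measured lysozyme was not called.

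Among 25 genes of sugar digestion and transport 1 was higher and 3 lower. Sut4, a sugar transporter, had 4.96, 5.19, 5.55 and 4.76 in CH-*dmDys* flies, against 12.97, 12.83, 13.04 and 13.11 in normoxic *dmDys* flies, and had the lowest adjusted p of the named genes (log2 difference -7.88, 235-fold, standard error 0.17, adjusted p = 1.34e-05). The maltase Mal-B2 had 12.89, 12.43, 12.97 and 13.18, against 9.58, 10.25, 10.94 and 9.57 (log2 difference 2.78, adjusted p = 0.00471). Glut1, a glucose transporter, was lower by 1.43 in its brightest probe set and differed by -0.19 and -0.01 in its other 2. The glucosidase tobi, a target of insulin signalling, was at the floor in all CH-*dmDys* flies and lower by 3.40, with a call lost in 6 of the 8 omissions. Hex-C, a hexokinase of the fat body, was higher by 1.5 (adjusted p = 0.00925). In WT flies sut4 was at 2.24 in CH-WT replicate 7 and 2.15 in normoxic WT replicate 5, which lacked testis transcripts. It was at 11.49 to 12.04 in the other WT flies, and whether its fall goes with testis was not tested.

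Of 20 lipase and sterol transport genes 1 was higher and 1 lower, shares under those over all genes. The gut lipase mag had 2.52, 2.51, 7.99 and 5.80 in CH-*dmDys* flies, against 11.95, 11.17, 10.55 and 10.93 in normoxic *dmDys* flies (log2 difference -6.44, adjusted p = 0.0205), and its call was lost without normoxic replicate 6, 7 or 10. CG6283, annotated as a lipase, had 10.93, 12.19, 11.75 and 12.91, against 8.94, 5.63, 8.28 and 5.05 (log2 difference 4.97, adjusted p = 0.0196), and it was not called without CH-*dmDys* replicate 6, 7 or 8 or normoxic replicate 7. In both genes 1 group varied by more than 3 units between flies.

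Among digestive genes, a wide range was found in more genes within the CH-*dmDys* group than within the normoxic one, while the median ranges were similar. Some digestive genes also spread widely within WT flies. In normoxic WT flies Jon44E had 12.42, 2.18, 13.52 and 10.89, and Jon65Ai had 9.29, 2.15, 10.17 and 6.88. Mal-B2 and Glut1 were narrower there, at 8.68 to 9.17 and 7.92 to 9.34. Whether the spread of the lists differs between CH-*dmDys* and WT flies was not tested. Of genes with a mean level above 4, a range of at least 3 log2 units within the CH-*dmDys* group was found in 6 of 22 Jonah and trypsin genes, 8 of 20 sugar genes and 4 of 11 lipase and sterol genes, against 0, 2 and 1 within the normoxic group. Over all 7925 genes above 4 this was found in 105 genes within the CH-*dmDys* group and in 117 within the normoxic one. The median ranges of the same digestive lists, in the same order, were 1.71, 1.22 and 1.28 within the CH-*dmDys* group. Within the normoxic group they were 1.57, 1.4 and 1.41. The widest range was in Bace, a gut aspartyl protease, which had 2.07, 11.40, 5.83 and 14.27 in CH-*dmDys* flies, against 11.54, 10.33, 11.56 and 11.18 in normoxic *dmDys* flies. The maltase Mal-A7 had 2.07, 6.34, 4.03 and 13.70, against 9.64, 9.43, 8.80 and 8.21. Jon99Fi had 2.06, 2.10, 9.45 and 10.23, against 12.64, 11.11, 12.26 and 11.10, so that 2 of the 4 CH-*dmDys* flies were at the floor for an abundant protease. These genes were singled out after their values were seen.

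The order of the flies was similar in many of these genes. Of 122 genes with a range of at least 3 within the CH-*dmDys* group, CH-*dmDys* replicate 5 was the lowest fly in 58 and replicate 8 the highest in 67. Within the normoxic group 151 genes had such a range, and normoxic replicate 8 was the highest fly in 86 of them. The phosphatases Alp10 and Alp9 were near the floor in 3 CH-*dmDys* flies and at 11.16 and 10.26 in replicate 8. The intestinal mannosidase genes LManV and LManIII were at 11.79 and 11.41 in replicate 8, against 2.44 to 7.12 in the other CH-*dmDys* flies. These 4 genes were not called.

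Detoxification enzymes were called higher more often than lower. Of 83 cytochromes P450, which oxidise foreign compounds and hormones, 13 were higher and 4 lower, with a median of 0.31. Cyp6a20 had 8.11, 8.54, 8.29 and 8.59 in CH-*dmDys* flies, against 3.30, 3.11, 4.64 and 4.62 in normoxic *dmDys* flies (log2 difference 4.47, standard error 0.42, adjusted p = 0.0022). Cyp9h1 rose by 2.99 (adjusted p = 0.00126) and Cyp6a18 by 4.14 (adjusted p = 0.00274), and the call of Cyp4ac1, 3.70, was lost without any 1 fly other than normoxic replicate 8. Among those called lower were Cyp28d2, by 2.21, and Cyp18a1, which inactivates the moulting hormone ecdysone, by 2.07. Over the omissions of 1 fly the higher count ran between 7 and 18, and without normoxic replicates 6 and 7 it was 5.

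Of 32 glutathione S-transferases 6 were higher and 1 lower, and of 35 UDP-glycosyltransferases, which add sugars to small molecules, 6 were higher and 0 lower. GstD10 had 9.52, 8.66, 7.27 and 8.67 in CH-*dmDys* flies, against 4.63, 4.59, 4.63 and 4.01 in normoxic *dmDys* flies (log2 difference 4.07, standard error 0.48, adjusted p = 0.00375). GstE2 rose by 3.01 (adjusted p = 0.00277) and GstT4 by 2.75 (adjusted p = 0.012). GstD2 ranged from 6.72 to 11.11 in CH-*dmDys* flies, and its difference of 4.19 was lost in 6 of the 8 omissions. Of the glycosyltransferases Ugt303B3 rose by 3.66, Ugt35C1 by 2.99, Ugt49B1 by 2.85 and Ugt302C1 by 2.36, and no single omission removed these 4 calls.

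Of 18 genes that keep the redox state 0 were higher and 2 lower, and up to 2 were higher when 1 fly was left out. Gclm, the modifier subunit of the enzyme that starts glutathione synthesis, had 4.15, 4.13, 4.23 and 4.26 in CH-*dmDys* flies, against 7.53, 9.34, 8.09 and 7.52 in normoxic *dmDys* flies (log2 difference -3.93, standard error 0.42, adjusted p = 0.00288). Trxr2, a thioredoxin reductase, fell by 1.91 (adjusted p = 0.00277). Outside the lists, Gpxl, named as a glutathione peroxidase-like gene, had 2.66, 2.66, 2.66 and 2.62, against 11.11, 11.31, 11.32 and 9.68 (log2 difference -8.20, standard error 0.38, adjusted p = 0.000192). CH-WT replicate 7 and normoxic WT replicate 5 lacked testis transcripts, and Trxr2 was at 2.10 in both. It was at 9.46 to 10.65 in the other WT flies, and Gclm was at 9.04 and 7.21 in these 2. Whether the fall of Trxr2 goes with testis was not tested.

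Metal-binding genes were called in 4 of 14, all lower. MtnC, a metallothionein that binds copper and other metals, had 12.65, 13.30, 13.02 and 14.18 in CH-*dmDys* flies, against 14.94, 14.85, 14.54 and 14.81 in normoxic *dmDys* flies (log2 difference -1.5, standard error 0.33, adjusted p = 0.0245). MtnD was lower by 1.84, and the copper transporters Ctr1C and Ctr1B by 1.73 and 1.03. Each of these calls was lost in 3 to 7 of the 8 omissions, and without both normoxic replicates 6 and 7 none of the 4 was called, nor was any other member.

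Of 12 antimicrobial peptides 3 were higher, 1 was lower and 8 were not called, with a median log2 difference of 1.59. Relatives of Drosomycin, an antifungal peptide, differed in sign. Drsl3 had 7.03, 7.43, 6.71 and 6.17 in CH-*dmDys* flies, against 2.14, 2.56, 2.39 and 2.52 in normoxic *dmDys* flies (log2 difference 4.43, standard error 0.28, adjusted p = 0.000534), and Drsl2 was at 4.82 to 7.66, against 2.09 in all normoxic flies. Drsl4 had 3.03, 3.29, 2.56 and 3.44, against 9.54, 10.98, 12.05 and 11.15 (log2 difference -7.85, standard error 0.54, adjusted p = 0.000814). DptB, a diptericin directed at Gram-negative bacteria, had 10.59, 12.19, 11.90 and 10.31, against 6.80, 8.44, 6.6 and 7.42 (log2 difference 3.94, adjusted p = 0.00841).

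Of 7 peptidoglycan recognition genes 2 were higher and 1 lower. PGRP-SB1, a secreted amidase that cuts bacterial cell wall, had 12.44, 13.29, 13.39 and 11.87 in CH-*dmDys* flies, against 9.44, 9.36, 11.15 and 9.42 in normoxic *dmDys* flies (log2 difference 2.91, adjusted p = 0.0153). PGRP-LA was higher by 1.30 (adjusted p = 0.00446). PGRP-SC2, an amidase of the gut, had 3.63, 8.81, 7.44 and 6.84, against 11.58, 10.10, 11.47 and 10.48, and lost its call of -4.23 in 6 of the 8 omissions.

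Blood cell genes were called higher in 2 of 16 and lower in 1. NimC1, a phagocytosis receptor of plasmatocytes, had 8.05, 8.92, 8.21 and 9.15 in CH-*dmDys* flies, against 2.08, 2.28, 2.08 and 2.08 in normoxic *dmDys* flies (log2 difference 6.45, 87.7-fold, standard error 0.26, adjusted p = 0.000131). It was at the floor in 7 of the 8 WT flies, with 8.13 in CH-WT replicate 7. The collagen gene vkg was higher by 1.23 and lz, the crystal cell transcription factor, lower by 1.72, and each of these 2 calls was lost in 5 or more of the 8 omissions.

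Of 14 genes of RNA interference 2 were higher and 2 lower. Dcr-2, the nuclease that cuts double-stranded RNA and acts on hairpin constructs such as the one these flies express, had 8.62, 8.33, 8.28 and 8.78 in CH-*dmDys* flies, against 6.30, 6.33, 6.89 and 6.87 in normoxic *dmDys* flies (log2 difference 1.90, standard error 0.20, adjusted p = 0.00277). Vago, a secreted antiviral protein, had 11.33, 10.33, 12.24 and 10.81, against 5.50, 7.44, 9.72 and 5.14 (log2 difference 4.23, adjusted p = 0.042). The calls of Vago, of pasha, which acts in microRNA processing (-2.35), and of AGO3, a piRNA argonaute (-1.23), were lost without any 1 fly other than normoxic replicate 8.

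Among 14 apoptosis genes 3 were higher and 0 lower, and 3 were higher in every omission of 1 fly and without normoxic replicates 6 and 7. The genes rpr, hid, Drice, Decay and Diap1 were not matched to a probe set with 1 gene symbol and were not counted. The caspase Damm had 11.08, 11.21, 11.48 and 11.50 in CH-*dmDys* flies, against 7.44, 4.84, 7.57 and 4.84 in normoxic *dmDys* flies (log2 difference 5.14, 35.4-fold, standard error 0.76, adjusted p = 0.00731). A second caspase, Strica, had 6.48, 6.70, 6.87 and 6.56, against 4.92, 3.93, 4.26 and 4.22 (log2 difference 2.32, standard error 0.22, adjusted p = 0.00227). The TNF ligand egr was higher by 1.65 in its brightest probe set (adjusted p = 0.00457) and by 2.29 in its other one, which was also called.

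Of 21 autophagy genes 4 were higher and 0 lower. Atg1, the kinase that starts autophagosome formation, had 8.49, 8.74, 8.11 and 8.29 in CH-*dmDys* flies, against 6.33, 7.08, 6.98 and 6.86 in normoxic *dmDys* flies (log2 difference 1.6, standard error 0.21, adjusted p = 0.0053). Atg101, a member of the same kinase complex, rose by 1.42 (adjusted p = 0.00371) and Atg3, which helps to attach Atg8 to membranes, by 1.49 (adjusted p = 0.00514). Atg18b was higher by 1.80, a call lost in 4 of the 8 omissions. The other 3 were called in every omission and without normoxic replicates 6 and 7.

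Genes of the nucleolus, where ribosomal RNA is made, were higher in 4 of 14 and lower in 0, with a median of 0.63. Nop60B, the pseudouridine synthase of rRNA, had 9.79, 9.84, 9.72 and 9.72 in CH-*dmDys* flies, against 7.94, 7.55, 8.60 and 8.32 in normoxic *dmDys* flies (log2 difference 1.67, standard error 0.22, adjusted p = 0.0057). Its other probe set differed by 0.15. Ns1, a nucleostemin, was higher by 2.88, NHP2 by 2.45 and Surf6 by 1.26, calls that 6, 5 and 2 of the 8 omissions removed. Without normoxic replicates 6 and 7 Nop60B alone of the list was called.

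The mitochondrial ribosome was near the background, with 6 of 69 genes higher and 3 lower and a median of 0.01. Its called members include mRpL39, with 9.10, 9.78, 9.64 and 9.55 in CH-*dmDys* flies, against 6.84, 6.5, 7.66 and 7.3 in normoxic *dmDys* flies (log2 difference 2.44, adjusted p = 0.00371), and mRpS28, higher by 1.40 with a standard error of 0.09 (adjusted p = 0.000534). The genes mRpS18C and mRpL36 fell by 1.74 and 1.52 on the log2 scale. Of 71 subunits of the respiratory chain and ATP synthase 0 were higher and 3 lower, with 35 at an unadjusted p under 0.05, which 41.9% of all genes reached. ND-20L had 7.17, 7.63, 7.87 and 7.72, against 9.58, 10.17, 9.48 and 9.76 (log2 difference -2.16, adjusted p = 0.00242). ATPsynepsilonL fell by 1.69 and ND-B8 was lower by 1.14, a call lost in 7 of the 8 omissions. By their names ND-20L and ATPsynepsilonL are relatives of chain subunits that have another gene. In CH-WT replicate 7 and normoxic WT replicate 5, which lacked testis transcripts, ND-20L was at 3.03 and 3.58. It was at 8.36 to 9.63 in the other WT flies. ATPsynepsilonL was at 2.84 and 9.13 in these 2 flies, and ND-B8 at 9.90 and 9.62. Whether the falls go with testis was not tested.

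Mitosis genes were lower in 9 of 33 and higher in 1, with a median of -0.34. Others, among them CycA, Cdk1, stg, polo, aurA and BubR1, were not matched to a probe set with 1 gene symbol and were not counted. Fzy, the activator of the anaphase-promoting complex, had 7.67, 7.78, 7.62 and 7.65 in CH-*dmDys* flies, against 9.03, 9.06, 8.48 and 8.94 in normoxic *dmDys* flies (log2 difference -1.20, standard error 0.13, adjusted p = 0.00339). The spindle motor Klp61F fell by 1.59 (adjusted p = 0.0113), borr, of the chromosomal passenger complex, by 1.35 (adjusted p = 0.00642), and thr, which controls sister chromatid separation, by 1.12 (adjusted p = 0.00284). Mps1, a checkpoint kinase, was lower by 1.42 and the checkpoint gene Bub3 higher by 1.92, calls lost in 7 and 5 of the 8 omissions. The lower count ran between 5 and 11 over the omissions, and without normoxic replicates 6 and 7 it was 3.

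The dividing cells of an adult fly lie largely in the gonads, so markers of the reproductive organs are given beside this list, and their part in its result was not tested. Of 32 testis genes 0 were higher and 1 lower, with a median log2 difference of -0.17 and 11 genes in which all CH-*dmDys* flies lay below all normoxic *dmDys* flies, as they did in 20.3% of all genes. Of 26 genes of the male accessory gland 0 were called and 3 had an unadjusted p under 0.05. Of 17 egg and yolk genes 16 had a mean level under 4 and 1 was called lower. Of 11 genes of the eye 1 was called higher, and of 6 storage protein genes of the fat body 1, Lsp2, was higher at a low level.

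Genes of the low-oxygen response that could be measured here were called in both directions. The known targets Ldh (ImpL3) and chrb are not named in the array annotation used here and were not analysed. Of 21 genes of the Sima pathway, its targets, globins and tracheal growth factors, 2 were higher and 2 lower, with a median of 0. Glob1, the main haemoglobin of the fly, had 12.99, 13.07, 13.26 and 13.48 in CH-*dmDys* flies, against 11.60, 11.91, 12.40 and 11.58 in normoxic *dmDys* flies (log2 difference 1.33, standard error 0.22, adjusted p = 0.00971). Bnl, the FGF that guides tracheal branches toward cells short of oxygen, had 7.99, 6.88, 7.55 and 7.20, against 10.16, 9.97, 8.40 and 9.57 in its brightest probe set (log2 difference -2.12, adjusted p = 0.0219), and differed by 0.01 and -0.05 in its other 2. The ligands Pvf1 and Pvf2, fly counterparts of VEGF and PDGF, were higher by 1.65 and lower by 3.06. The calls of bnl, Pvf1 and Pvf2 were lost in 6, 5 and 2 of the 8 omissions, and that of glob1 in 0. Without normoxic replicates 6 and 7 glob1 was not called, at a log2 difference of 1.21.

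Of 13 genes of nutrient signalling 1 was higher and 1 lower. The transcription factor foxo, which is active when insulin is low, had 10.38, 10.27, 10.61 and 10.66 in CH-*dmDys* flies, against 8.54, 8.82, 9.47 and 8.81 in normoxic *dmDys* flies (log2 difference 1.57, standard error 0.21, adjusted p = 0.00575). ImpL2, a secreted protein that binds insulin-like peptides, had 9.20, 9.95, 9.64 and 9.33, against 11.49, 10.68, 11.69 and 10.75 (log2 difference -1.62, standard error 0.30, adjusted p = 0.0138). No single omission removed either call, but without normoxic replicates 6 and 7 neither was called. The log2 differences of foxo and ImpL2 were then 1.34 and -1.69.

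Clock genes cycle over the day, and no time of sampling was used here. Clk, the activator of the clock, had 10.55, 10.50, 10.83 and 9.81 in CH-*dmDys* flies, against 7.95, 8.78, 7.62 and 7.94 in normoxic *dmDys* flies (log2 difference 2.35, standard error 0.32, adjusted p = 0.00594). Of the 5 genes that peak near dusk, the activator Pdp1 was lower by 1.69 (adjusted p = 0.00259), the repressor cwo was higher by 1.30 in its brightest probe set (adjusted p = 0.0108), and 3 were not called. The other probe set of cwo had 10.56, 11.13, 10.90 and 10.69 in CH-*dmDys* flies, against 6.88, 7.13, 7.13 and 7.22 in normoxic *dmDys* flies (log2 difference 3.73, standard error 0.14, adjusted p = 0.000117). Frost (Fst), a gene known for its induction after cold, had 10.01, 11.50, 9.10 and 12.34, against 4.31, 3.00, 4.23 and 3.39 (log2 difference 7.00, 128-fold, standard error 0.77, adjusted p = 0.00324). Jhe, the esterase that breaks down juvenile hormone, was higher by 3.38 and Jheh2, an epoxide hydrolase of the same hormone, by 1.43, calls lost in 5 and 7 of the 8 omissions. Obp99b, an odorant-binding protein, rose by 4.69 (adjusted p = 0.00219).

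The muscle genes that could be measured and the dystrophin complex held few calls. Mhc, Act57B, Tm1, wupA, TpnC47D and TpnC25D were not matched to a probe set with 1 gene symbol and were not counted. Of 28 genes of the contractile apparatus and its attachment 0 were higher and 1 lower, with a median of -0.21 and 11 genes in which the CH-*dmDys* flies all lay below the normoxic ones, a share to be read against 20.3% over all genes. Act88F, the actin of flight muscle, had 11.37, 11.45, 10.73 and 11.53 in CH-*dmDys* flies, against 12.61, 12.30, 13.73 and 13.03 in normoxic *dmDys* flies (log2 difference -1.65, adjusted p = 0.0219), and its call was lost in 4 of the 8 omissions. Dg, dystroglycan, the membrane partner of dystrophin, had 5.96, 6.35, 6.31 and 6.32, against 8.30, 7.86, 6.75 and 7.32 (log2 difference -1.32, adjusted p = 0.0397). That call was lost without any 1 fly other than normoxic replicate 8, and the other 10 genes of the complex were not called in their brightest probe sets.

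Several of the largest changes were in genes of which only the annotation number is known here. CG14499 had 12.95, 13.86, 14.38 and 12.98 in CH-*dmDys* flies, against 3.57, 3.10, 5.59 and 2.38 in normoxic *dmDys* flies, the largest rise of all (log2 difference 9.88, 945-fold, standard error 0.75, adjusted p = 0.00115). CG13311 rose by 8.17, CG15043 by 7.17, CG6337 by 6.91 and CG6839 by 6.6, and these 4 calls survived each omission. CG5767 and CG15358 were higher by 7.27 and 6.89, calls lost without CH-*dmDys* replicate 8 for CG5767 and without any of 4 flies for CG15358.

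Among the falls, CG12057 had 2.34, 2.36, 2.26 and 2.36 in CH-*dmDys* flies, against 12.27, 11.88, 11.20 and 10.57 in normoxic *dmDys* flies (log2 difference -9.15, 567-fold, standard error 0.37, adjusted p = 0.00013). CG7916 fell by 8.43, CG17571 by 8.14 and CG43134 by 6.45. CG7953 was lower by 7.42 but had 9.10 in CH-*dmDys* replicate 7, against 2.29 to 4.34 in the other 3 CH-*dmDys* flies, and it was no longer called without CH-*dmDys* replicate 6 or 8. Over the whole array, 10 genes were above 6 in all CH-*dmDys* flies and under 3 in all normoxic *dmDys* flies, among them LysX, NimC1, Cda9, Drsl3 and CG6839, and 6 probe sets were the reverse, of which 4 have 1 gene symbol: Gpxl, CG12057, Jon44E and CG12498.

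How many of these changes differed from those of WT flies depended on the WT flies in the test. In 1 fit of all 16 arrays the change of *dmDys* flies differed from that of WT flies, CH-WT minus normoxic WT, in 86 probe sets upward (0.455%) and 83 downward (0.439%), and 159 of these 169 were also called in the same direction in *dmDys* flies, 8.83% of the 1801. CH-WT and normoxic WT flies differed in 10 probe sets (0.0529%). In this test genotype, the kind of hypoxia and the different floor of the arrays of each genotype cannot be told apart. Of the WT flies, CH-WT replicate 7 and normoxic WT replicate 5 lacked testis transcripts, and without them 376 probe sets differed upward (1.99%) and 322 downward (1.70%), and 607 of these were called in the same direction in *dmDys* flies, 33.7% of the 1801.

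One kind of difference was in genes at or near the floor in some or all of the WT flies. Cht9 was between 2.17 and 3.36 in CH-WT flies and between 2.18 and 2.52 in normoxic WT flies, and its change differed by 6.99 between the genotypes (standard error 0.38, adjusted p = 4.68e-07). Cda9 was at 2.18 or 2.19 in all WT flies (difference of changes 5.54, standard error 0.32, adjusted p = 7.91e-07), and Cht4 differed by 6.26 (adjusted p = 0.000148). AsnS had 3.08 to 6.31 in CH-WT flies, and in normoxic WT flies 3 of 4 were at 2.16 to 2.51 and 1 at 5.81 (difference of changes -6.80, standard error 1.38, adjusted p = 0.0371). Drsl4, which fell in *dmDys* flies, was at 2.20 to 2.22 in all WT flies (difference of changes -7.85, standard error 0.55, adjusted p = 4.66e-06). The WT changes of Cda9 and Drsl4 were 0, so their differences of changes repeat the *dmDys* differences and are no further evidence.

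Other genes were expressed in WT flies and did not follow the *dmDys* change. Gpxl had 10.45, 10.88, 11.57 and 11.31 in CH-WT flies, against 11.33, 10.43, 11.18 and 10.81 in normoxic WT flies, so that the CH-*dmDys* flies, at 2.62 to 2.66, were the only group near the floor (difference of changes -8.32, standard error 0.50, adjusted p = 1.15e-06). CG13311 had 9.93 to 10.84 in CH-WT and 9.75 to 11.11 in normoxic WT flies, so that here the normoxic *dmDys* flies stood apart (difference of changes 8.05, standard error 0.56, adjusted p = 4.66e-06). Gclm, which fell in *dmDys* flies, had 6.48 to 9.04 in CH-WT and 5.11 to 7.21 in normoxic WT flies (difference of changes -5.60, standard error 0.85, adjusted p = 0.00611).

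**Figure D5:**
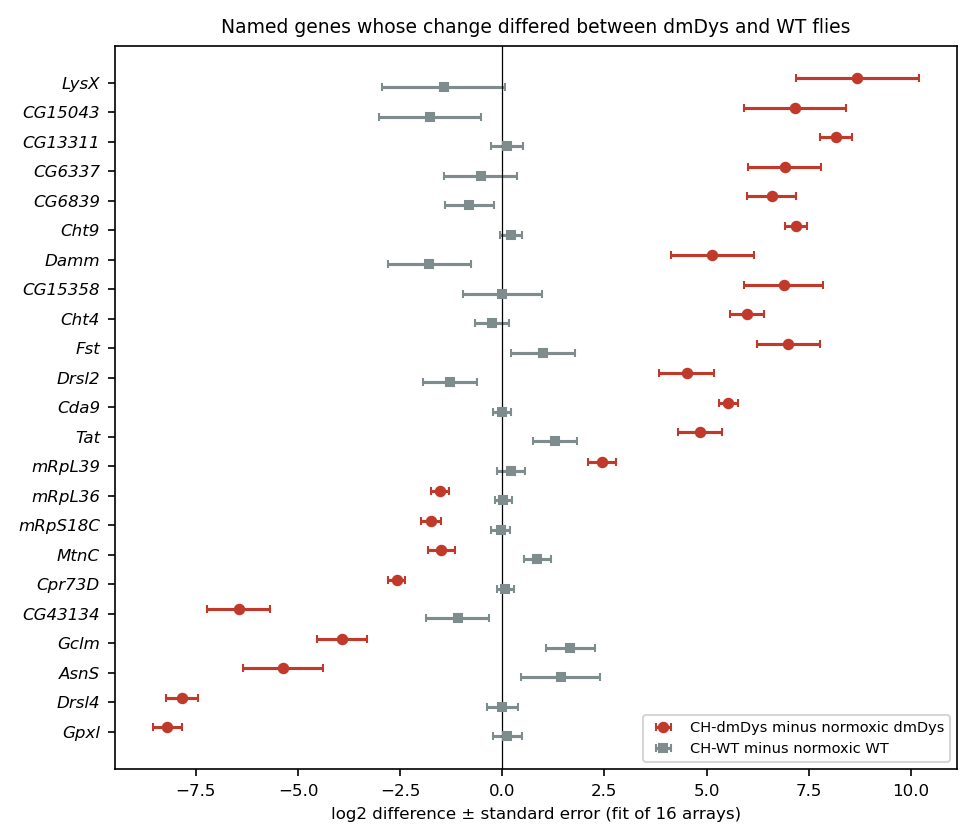
Log2 difference ± standard error from the fit of 16 arrays, for CH-*dmDys* minus normoxic *dmDys* (circles) and for CH-WT minus normoxic WT (squares), in the 23 named genes whose changes differed between the genotypes. The WT values lie between -1.79 and 1.67, and most of the *dmDys* values lie outside this range.

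Tat rose in *dmDys* flies by more than in WT flies, where it had 7.19, 7.28, 7.77 and 9.57 in CH-WT and 6.04, 6.95, 7.58 and 6.11 in normoxic WT flies (difference of changes 3.57, standard error 0.76, adjusted p = 0.0474). The caspase Damm had 5.44 to 9.13 in CH-WT and 8.43 to 12.41 in normoxic WT flies (difference of changes 6.93, standard error 1.44, adjusted p = 0.0417). Fst, at 2.12 to 5.35 in CH-WT and 2.12 to 3.23 in normoxic WT flies, differed by 6.00 (standard error 1.10, adjusted p = 0.0199). Of the metabolic and blood cell genes above, Gart and NimC1 were not called in the fit of 16 arrays (difference of changes 4.31 and 4.97, adjusted p = 0.0992 and 0.202), and were called once both WT flies without testis transcripts were left out (4.98 and 6.45, adjusted p = 0.00318 and 1.46e-06). One of these 2 flies, CH-WT replicate 7, was the only WT fly above the floor for NimC1 (8.13) and the highest for Gart (9.54). Leaving them out took the WT change of NimC1 from 1.48 to 0, so its second value repeats the *dmDys* difference and is no further evidence. For Gart the WT change went from 1.73 to 1.06. Hpd, hgo and Gnmt were called in neither fit, with differences of changes of 2.27, 2.03 and 1.6 over 16 flies (adjusted p = 0.488, 0.668 and 0.931), which does not show that the changes were alike.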

How the data were processed

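Each sample was RNA of 1 whole fly, amplified from the poly(A) tail with ribo-SPIA and hybridized to 1 array. The authors deposited intensity values on a linear scale, which they had computed from the scanner files with GCRMA, and these were turned into log2 here. The lowest values and upper quartiles differ between the *dmDys* and the WT arrays, which therefore appear to have been normalized apart. Of 18952 probe sets 45 hybridization spike-ins were left out and 18907 were tested. By the platform annotation 13647 had 1 gene symbol (11982 genes), 402 several and 4903 none. The 8 *dmDys* arrays were fitted with limma 3.58.1 in R 4.3.3 (lmFit and eBayes), with Benjamini-Hochberg adjustment over all probe sets. Every adjusted p of a gene in the text comes from limma. The difference of the changes between genotypes is the interaction term of a fit of all 16 arrays. The code was tested on simulated data before use. The number of arrays limits the precision, and p-values measure the spread between single flies.

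Groups come from the sample titles. Other labels conflict with the titles in 2 groups, where a WT fly (CH-WT replicate 3) is given the *dmDys* strain and CH stands in the source name of flies kept in normoxia, and no strain is given for CH-*dmDys* replicate 5. A gene is represented in a list by its brightest probe set. Many lists lack members that were not matched to a probe set with 1 gene symbol, such as MtnE, Dcr-1, AGO1 and AGO2. Genes were named by a rule that leaves out heat shock genes and takes, from the called probe sets without overlap between groups, the 10 that rose most and the 10 that fell most, up to 4 members with the largest called changes in each list, the genes the study discusses for this comparison, Dys and the controls. Other called members of a list and the genes with a wide spread were added after their values were seen. The comparison, the gene lists and the tests were chosen with earlier results of these data known. Lists are described by counts and medians, with no test of the list. Alternatives were the study's own method, SAM at a false discovery rate of 0, other normalizations, filters and sets of arrays, the 3' to 5' difference of the controls entered as covariate, a replicate block and leaving out flies.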

Additional observations from a re-analysis of the deposited data

Results flagged for a closer look

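In 28 of 254 groups of 4 flies 1 fly lay far from the other 3 by Dixon's test at the 95% level, which chance gives in about 1 group in 20. Normoxic *dmDys* replicate 8 was the fly that stood apart most often. It had log2 levels of 7.97 for CG15043, 8 for CG15358, 5.96 for Jhe, 5.16 for Sardh, 6.01 for Cyp9h1, 11.15 for PGRP-SB1, 11.15 for vkg, 3.09 for AGO3 and 5.97 for the 5' probe set of Act5C, and each of these lay on the CH-*dmDys* side of its group. Other normoxic *dmDys* flies stood apart with 2.13 for LysX and 3.03 for Ugt303B3 in replicate 6, 2.28 for NimC1 in replicate 7, and 9.68 for Gpxl and 4.01 for GstD10 in replicate 10. Of the CH-*dmDys* flies, replicate 5 stood apart with 11.15 for Atg3, 5.96 for Dg and 9 for the 5' probe set of eIF-4a, and replicate 6 with 4.6 for CG17571 and 11.81 for Cpr67Fb. Replicate 7 had 2.26 for CG12057, 5.09 for CG7916 and 9.98 for Cyp4ac1, and replicate 8 had 2.62 for Gpxl, 7.76 for Atg18b, 6.17 for Ugt35C1, 11.77 for Ugt49B1, 2.24 for Jon65Ai and 8.69 for borr. For LysX, NimC1, CG12057, Jon65Ai and the CH-*dmDys* flies of Gpxl the whole range of the group was under 0.3 log2 units and near the lowest values measured.

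The log2 change of 23 named genes differed between *dmDys* and WT flies in limma's fit of 16 arrays. It was larger in *dmDys* flies by 10.13 for LysX (adjusted p = 0.0438), 8.94 for CG15043 (0.0319), 8.05 for CG13311, 7.44 for CG6337 (0.0124), 7.4 for CG6839 (0.000662), 6.99 for Cht9, 6.93 for Damm, 6.9 for CG15358 (0.0333), 6.26 for Cht4, 6 for Fst, 5.8 for Drsl2 (0.00924), 5.54 for Cda9, 3.57 for Tat and 2.24 for mRpL39 (0.0497). It was on the negative side for mRpL36 (-1.55), mRpS18C (-1.7), MtnC (-2.35), Cpr73D (-2.66), CG43134 (-5.35), Gclm (-5.6), AsnS (-6.8), Drsl4 (-7.85) and Gpxl (-8.32). Genotype, the kind of hypoxia and the different floor of the arrays of each genotype cannot be told apart in these values. For CG15358, Cda9 and Drsl4 the WT change was 0, so their values repeat the *dmDys* difference. LysX varied widely within both WT groups. It had 2.44, 2.24, 3.78 and 8.02 in CH-WT flies, against 7.51, 2.10, 8.99 and 3.62 in normoxic WT flies (WT log2 difference -1.44, standard error 1.5).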

How the results depend on the processing

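Of 1032 probe sets called higher and 769 called lower, SAM kept 256 and 205. With no fold threshold 1819 and 2000 were called. One fit of all 16 arrays called 573 and 339 (550 and 321 of them shared), and without normoxic *dmDys* replicates 6 and 7, an alternative chosen after seeing the data, 403 and 320 were called and the members called in the gene lists dropped to 84, against 180. With the 3' to 5' difference entered as covariate 11 and 18 remained called, Jheh2 came to -0.04 and Dg to 0 with reversed sign before rounding. Since the groups do not overlap in that covariate, this fit cannot separate it from CH. With the replicate block, flies 6, 7 and 8 of both groups paired by number, 6 and 6 were called. Whether the numbers pair flies is not given in the sources used here. Same-numbered flies had correlations of deviations of -0.2646, -0.0675 and 0.1209, and 0 of the 3 normoxic flies was nearest to its own number. These values do not show how the flies were numbered or handled. Leaving out 1 fly gave 694 (without CH-*dmDys* replicate 8) to 1171 (without normoxic replicate 8) higher and 547 (without CH-*dmDys* replicate 7) to 938 (without normoxic replicate 8) lower probe sets. It gave 117 to 214 members called in the lists, with the same CH-*dmDys* replicate 7 and normoxic replicate 8 left out. The 3' to 5' difference stayed between -6.06 and -4.54, with exact permutation p = 0.057 where a CH-*dmDys* fly was left out and 0.029 otherwise. The difference between genotypes was called in 698 probe sets when CH-WT replicate 7 and replicate 5 of normoxic WT were left out (167 of the 169 shared), in 102 after quantile normalization of all arrays (98 shared), and in 115 to 321 with 1 fly left out, the most without CH-WT replicate 7.

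Of 118 named probe sets, 117 of them called, 80 were called in every omission of 1 fly. SAM removed 70 of these calls, the fit of 16 arrays 45, the covariate 108, the block 116, leaving out normoxic replicates 6 and 7 48, and a floor at a log2 level of 4 8. No call of them changed with no fold threshold, quantile normalization, centring or a trend in eBayes. Protein lengths and promoter motifs were planned and not run, and the length of the gene was used for the first of these. Levels near the floor give no measure of how low a transcript was, and a whole fly gives no tissue of origin.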

Other observations

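Several gene groups not described above held calls in limma's fit of the 8 *dmDys* arrays. Of 47 odorant-binding proteins, secreted carriers of the antenna and other organs, 5 were higher in CH-*dmDys* flies and 1 lower. Obp18a had log2 levels of 11.6, 11.43, 11.54 and 11.58 in CH-*dmDys* flies, against 9.61, 10.02, 10.61 and 9.89 in normoxic *dmDys* flies (log2 difference 1.51, standard error 0.21, adjusted p = 0.006). Obp93a had 6.62, 7.27, 7.04 and 6.61, against 8.71, 9.23, 8.19 and 8.38 (log2 difference -1.75, adjusted p = 0.00863). Galk, galactokinase, rose by 1.87 (adjusted p = 0.00346), and SREBP, a regulator of fatty acid synthesis in flies, by 1.43 (adjusted p = 0.00288), and no omission of 1 fly removed these 4 calls.

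Among 13 genes that turn tyrosine into melanin and amines 2 were higher. The dopachrome enzyme yellow-f2 had 9.71, 9.36, 9.37 and 10.45 in CH-*dmDys* flies, against 6.12, 6.55, 8.19 and 6.21 in normoxic *dmDys* flies (log2 difference 2.95, adjusted p = 0.0131). The gene e (ebony), which joins beta-alanine to dopamine, was higher by 3.36 with 7.71 in normoxic replicate 8, against 3.82 to 4.43 in the other normoxic flies, and lost its call in 7 of 8 omissions. Gcn2 and PEK, the kinases that sense missing amino acids and unfolded proteins, were lower by 1.16 and 1.01 and lost these calls in 6 and 5 of 8 omissions.

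All 4 CH-*dmDys* flies were at 8.19 to 8.84 for Pxt, a peroxidase known from the fly's ovary, and all 4 normoxic *dmDys* flies at 2.08 (log2 difference 6.34, standard error 0.14). Of the WT flies, 7 were at 2.15 or 2.16 and normoxic WT replicate 5 was at 6.68. This gene was singled out after its values were seen.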
